A study of Homo sapiens with 14 samples.

Results

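FLT3, KIT, CSF3R, CSF2RB, STAT5A, STAT5B, CISH, SOCS2, SOCS3 and PIM1 are 10 genes of growth factor signalling in myeloid blood cells: 4 receptors, the STAT5A and STAT5B transcription factors, 3 feedback inhibitors and 1 induced kinase. They were taken as a list of names, with no measured value in the rule, from a table of raw read counts for 58037 gene IDs, of which 19726 are protein-coding in GENCODE 29. All 10 were found in the table.

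FLT3 and KIT are receptor tyrosine kinases that bind FLT3 ligand and stem cell factor. CSF3R is the receptor for granulocyte colony-stimulating factor, and CSF2RB is the beta chain shared by the receptors for GM-CSF, interleukin-3 and interleukin-5; both signal through Janus kinases. Activated receptors lead to phosphorylation of STAT5A and STAT5B, which pair, enter the nucleus and switch on genes that include CISH, SOCS2 and PIM1, and CISH and the SOCS proteins in turn damp receptor signalling. FLT3 with an activating mutation drives STAT5 in many acute myeloid leukaemias.

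The libraries came from OCI-AML2, an established human acute myeloid leukaemia line, with RUNX1 either intact on both alleles (wt/wt) or carrying the R174* stop codon on 1 allele (R174*/wt). RUNX1 is a transcription factor needed to form blood cells. There were 10 libraries of total RNA and 4 of RNA captured by RiboLace, a pull-down of translating ribosomes with a puromycin-like probe. The treatment was homoharringtonine (HHT), an inhibitor of translation elongation used against myeloid leukaemia.

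Wild-type total RNA had 2 libraries of the untreated parent line, which carry a 0 h label in their descriptions and no other time. Mutant control total RNA had 4 libraries, replicates 1 and 2 from a line named F3 and replicates 3 and 4 from a line named G7; the treatment protocol names DMSO as what was given in place of HHT. Mutant HHT total RNA had 4 libraries numbered over the same lines, from cells given 100 nM HHT for 8 h. RiboLace had 2 untreated wild-type libraries and 2 untreated libraries of line F3. The labels give 1 growth protocol for all groups, with serum in the medium. Wild type was the parent line alone and each mutant line is 1 line, so line and genotype cannot be told apart for F3 or for G7 by itself. The control libraries carry an 8 h label in one field and a 0 h label in another, so that HHT and time in culture cannot be told apart if the 0 h label holds, and control treatment and genotype cannot be told apart in total RNA. The labels do not say that replicates were separate cultures, and p-values then measure only the spread between these libraries. Gene counts do not read the R174* codon and gave no check of the genotype labels.

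Total RNA libraries held 19250789 to 21925693 counts and RiboLace libraries 465052 to 2034796, so RiboLace values rest on far fewer reads. Of the myeloid markers 11 of 15 averaged at least 1 CPM (counts per 1000000 counts of the scaled library) in total RNA, while CD34 had 0 reads in every library. The summed myeloid markers ranged from 3383 to 3991 CPM in wild type, 5723 to 5957 in F3 control, 7443 to 8042 in G7 control, 3385 to 3503 in F3 HHT and 3655 to 3753 in G7 HHT. Most of this sum was the granule genes AZU1 (1918 CPM in wild type, 4300 in G7 control) and CTSG (321 and 2331). Several other markers went the other way, such as LYZ (369 and 115) and CEBPA (160 and 99.9). Under HHT SPI1 rose, from 350 to 537 CPM in F3. The sum is therefore no measure of the myeloid markers as a set. Erythroid markers summed to at most 0.308 CPM in total RNA, with HBA1 and HBB at 0. Lymphoid markers summed to 66.8 to 77.3 CPM in wild type, 45.6 to 118 in mutant controls and 18.3 to 36.0 with HHT, with 4 of 11 at 1 CPM or more; nearly all of it was NCAM1 and NKG7, and CD3E, CD3G and CD2 were at 0 in total RNA. Platelet markers summed to at most 8.22 CPM in wild type and F3 control to 19.8 to 29.8 in G7 control and to 3.22 to 10.7 with HHT, with 2 of 7 at 1 CPM or more and PF4 and PPBP at 0. Adherent cell markers had 1 of 11 at 1 CPM or more in total RNA, namely PDGFRB, with EPCAM and COL3A1 at 0; their sum was 7.57 to 12.3 CPM in untreated libraries and at most 1.97 with HHT. COL1A1 averaged 7.99 and 18.5 CPM in wild-type and F3 RiboLace, beside at most 0.294 in any total RNA group. The part of these markers in the results was not tested. In bulk RNA, fewer cells of a type and less RNA per cell cannot be told apart.

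The genes lie at these positions in GRCh38, each value the full gene as GENCODE 29 gives it. FLT3 (ENSG00000122025.14) is on chromosome 13 from 28003274 to 28100592, minus strand, and KIT (ENSG00000157404.15) on chromosome 4 from 54657918 to 54740715, plus strand. CSF3R (ENSG00000119535.17) is on chromosome 1 from 36466043 to 36483278, minus strand, and CSF2RB (ENSG00000100368.13) on chromosome 22 from 36913628 to 36940449, plus strand. STAT5B (ENSG00000173757.9), chromosome 17 from 42199168 to 42276707, minus strand, and STAT5A (ENSG00000126561.16), chromosome 17 from 42287547 to 42311943, plus strand, are neighbours. CISH (ENSG00000114737.15) is on chromosome 3 from 50606490 to 50611831, minus strand, SOCS2 (ENSG00000120833.13) on chromosome 12 from 93569814 to 93583487, plus strand, SOCS3 (ENSG00000184557.4) on chromosome 17 from 78356778 to 78360077, minus strand, and PIM1 (ENSG00000137193.13) on chromosome 6 from 37170203 to 37175426, plus strand.

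Counting could blur some of these genes. STAT5A shared 8.61% of its 50-base words with STAT5B, and STAT5B shared 7.81% with STAT5A, so their reads can be split or lost. Exons of CISH overlap 218 exon bases of MAPKAPK3 and SOCS2 overlaps 277 exon bases of SOCS2-AS1, both on the opposite strand; whether counting used strand is not stated in the labels, and reads in these stretches cannot be told apart. FLT3, KIT, SOCS3 and PIM1 shared no 50-base word and no exon base with another gene.

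STAT5 binds the motif TTCNNNGAA, which reads the same on both strands. RefSeq promoters (GRCh38.p14, 250 bases before to 50 after a start) were matched for 8 of the 10 symbols; CSF2RB and SOCS2 were not matched. The upstream sequence of CISH is shown because it alone among the matched members held the motif, 4 times, and that of PIM1 because it is another textbook STAT5 target that held none. Capitals mark TTCNNNGAA.
CISH, chr3:50611832-50612024, minus strand: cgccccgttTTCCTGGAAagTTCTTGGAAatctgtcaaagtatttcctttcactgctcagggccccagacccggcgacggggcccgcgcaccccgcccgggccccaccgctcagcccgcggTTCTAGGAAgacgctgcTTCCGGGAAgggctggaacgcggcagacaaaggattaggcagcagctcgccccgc
PIM1, chr6:37169902-37170151, plus strand: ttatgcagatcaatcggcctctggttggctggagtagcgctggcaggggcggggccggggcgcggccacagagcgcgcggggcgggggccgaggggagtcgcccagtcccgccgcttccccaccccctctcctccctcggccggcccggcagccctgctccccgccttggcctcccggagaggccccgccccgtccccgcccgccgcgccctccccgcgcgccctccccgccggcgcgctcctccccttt

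The CISH matches were TTCCTGGAA, TTCTTGGAA, TTCTAGGAA and TTCCGGGAA, which begin at -241, -230, -129 and -112 from the RefSeq start. The CISH stretch shown has 193 bases, since it stops where the GENCODE gene begins. The RefSeq start lies further downstream, so these positions do not count from the end of the stretch shown. TTCNNNGAA occurred at least once in 6.57% of 35116 RefSeq promoters over the 250 bases before the start, and at least 4 times in 5 of them. The RUNX motif TGTGGT, searched on both strands, was found in 1 of the RefSeq starts of CSF3R, at position 14 after the start, and in no other matched member; 13.1% of promoters held it in the 300-base window. A match is a stretch of letters and not a measured binding site.

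In untreated total RNA, CSF3R was the most abundant of the 10 per length and KIT was at background. Levels between genes are given as CPM per kb of exon. In F3 controls the order of group means was CSF3R 27.5, STAT5B 24.7, FLT3 24.4, SOCS2 17.3, STAT5A 8.30, CSF2RB 5.92, CISH 4.25, PIM1 0.785 and SOCS3 0.322 CPM per kb. STAT5B and FLT3 overlapped between libraries in that order, and all other neighbours were apart. Wild type differed in its order: FLT3 at 21.4 CPM per kb overlapped CSF3R at 22.02, STAT5B followed at 18.6, and CSF2RB at 7.71 stood above STAT5A at 3.80. G7 controls placed SOCS2 at 17.1 CPM per kb above FLT3 at 10.7. After HHT, SOCS2 was the highest of the 10 in both lines, at 25.1 CPM per kb in F3 and 24.55 in G7, above STAT5B and CSF3R at 10.7 to 14.8.

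KIT had 2 reads over all 14 libraries, 1 in wild-type replicate 2 and 1 in G7 control replicate 3, or 0.04996 and 0.0538 CPM. A count of 3 reads, taken as the floor, is 0.123 to 0.165 CPM in a total RNA library and 1.58 to 6.19 CPM in a RiboLace library. KIT mRNA was therefore not detectable at this depth in any group and entered no test. The floor covers counting error only.

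**Figure D1:**
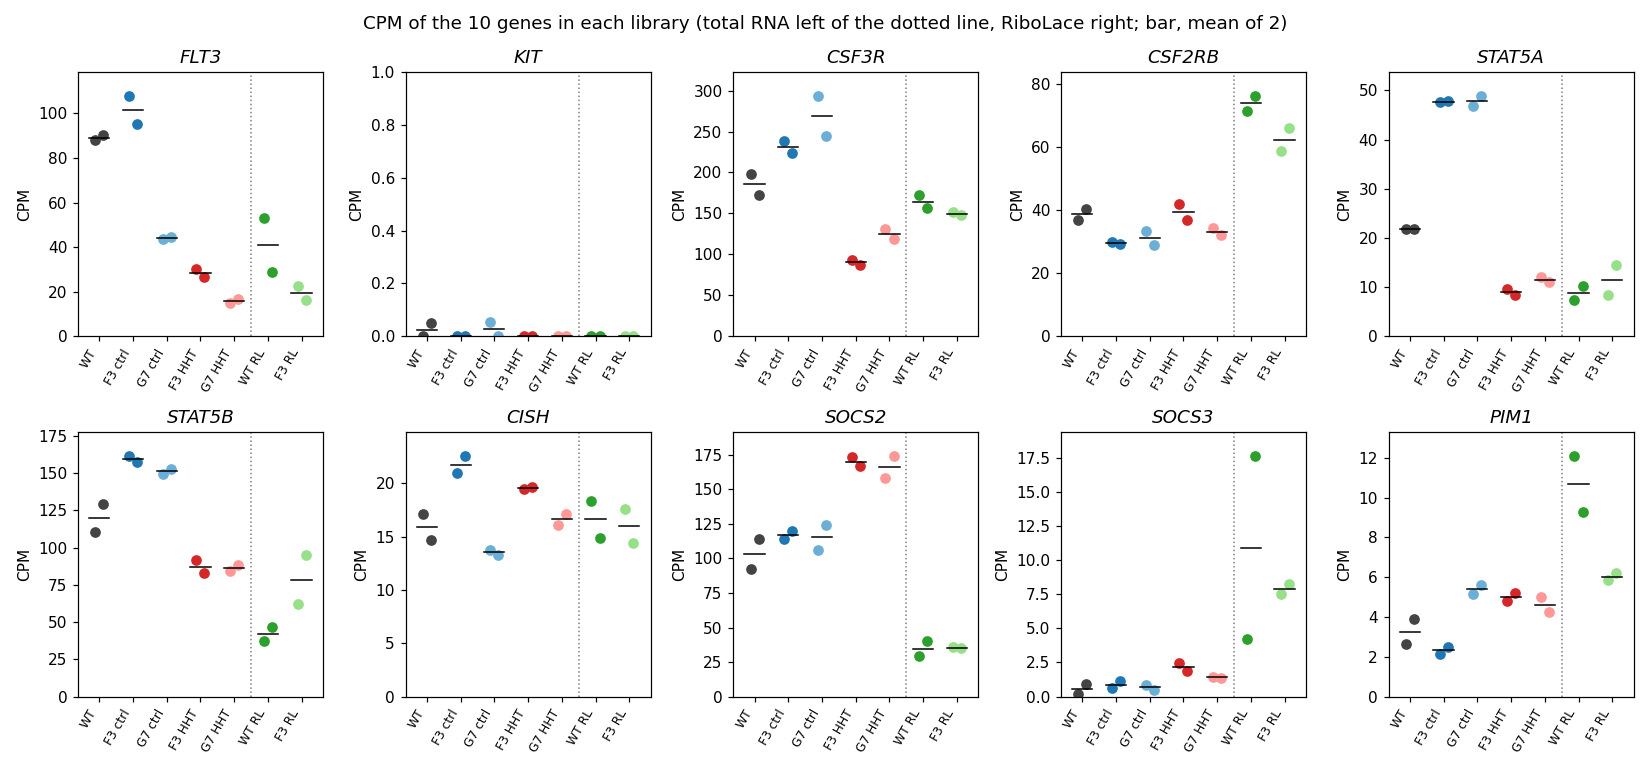
CPM of each of the 10 genes (vertical axis, linear, starting at 0) in each library; points are libraries, bars are means of 2, and the dotted line parts total RNA from RiboLace (RL). STAT5A sat at 46.7 to 48.9 CPM in all 4 mutant controls, 21.8 and 21.9 in wild type and at most 12.1 with HHT; FLT3 in G7 controls was below F3 controls.

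HHT against control asked how these genes stood after translation was blocked. After HHT, STAT5A, FLT3, CSF3R and STAT5B fell and SOCS3, SOCS2 and CSF2RB rose, 7 of the 9 tested members at an edgeR adjusted p under 0.05; CISH and PIM1 did not pass. Across all 13621 genes tested 79.2% passed, 39.9% higher and 39.3% lower, so the number of members that passed is near that of genes in general. The median log2 difference of the 9 members was 0.06 beside -0.00 for all genes. CPM are scaled by TMM within each assay, which assumes that most genes keep their level. Whether that held here, with 79.2% of genes past the threshold, was not tested. With library totals alone the median of all genes was 0.23, CSF2RB was at 0.48, SOCS2 at 0.76 and STAT5B at -0.61. Rises and falls are thus relative to the scaling, and the size of small ones depends on it.

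STAT5A had the largest fall of the 10. The F3 controls measured 47.7 and 47.8 CPM and the G7 controls 46.7 and 48.9, against 9.56 and 8.39 in F3 HHT and 12.1 and 10.98 in G7 HHT. Controls and HHT libraries were far apart in both lines, and the 4 controls were close to one another. The log2 fold change was -2.23 ± 0.09 (SE), a 4.70-fold lower level (edgeR adjusted p 5.21e-11), with 96.5% of genes above it. STAT5B, its paralogue, measured 161 and 158 CPM in line F3, with 150 and 153 in G7 without HHT, 91.6 and 82.7 in F3 HHT and 84.3 and 88.4 in G7 HHT. Those groups did not overlap either, and the fall was smaller, at -0.85 ± 0.06 (edgeR adjusted p 1.11e-08).

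FLT3 and CSF3R, receptors for different growth factors, both fell. FLT3 measured 108 and 95.4 CPM in F3 controls and 30.3 and 26.4 with HHT in that line, and 43.8 and 44.8 in G7 controls and 14.85 and 16.7 with HHT. All HHT libraries were below all controls, and the log2 fold change was -1.68 ± 0.09, 3.21-fold (edgeR adjusted p 8.16e-10). CSF3R in control cells measured 238.5 and 224 CPM for F3 and 293.5 and 245 for G7, against 93.1 and 87.5 in F3 HHT and 132 and 118 in G7 HHT. Every treated library was below every control, at -1.24 ± 0.08 (edgeR adjusted p 5.28e-09).

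CSF2RB went the other way by a small amount. It measured 29.9, 29.3, 33.5 and 28.9 CPM in control replicates 1 to 4 and 41.9, 37.0, 34.3 and 32.0 in HHT replicates 1 to 4. G7 control replicate 3 overlapped the G7 HHT libraries. The log2 fold change was 0.25 ± 0.09 (edgeR adjusted p 0.0177), and it did not pass without control replicate 1 (adjusted p 0.0751), control replicate 2 (0.0998), control replicate 4 (0.0569) or HHT replicate 1 (0.0704).

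The feedback inhibitors did not move as 1 group. SOCS2 measured 114, 120, 106.5 and 124.5 CPM in the controls and 173, 167, 158.5 and 174.1 with HHT, with no overlap. Its rise was 0.53 ± 0.06 (edgeR adjusted p 3.47e-06), 1.44-fold. SOCS3 was scarce, at 12, 22, 16 and 9 reads in the controls (0.632, 1.13, 0.862 and 0.477 CPM) and 57, 43, 33 and 34 reads with HHT (2.44, 1.85, 1.44 and 1.40 CPM). It passed the filter on low counts through the HHT libraries, since a control library lay under the filter level of 0.48 CPM. Its log2 fold change was 1.18 ± 0.25 (edgeR adjusted p 0.000582), or 1.25 (4.60e-07) with no filter. Without SOCS3, 6 of 8 members passed.

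CISH and PIM1, both induced by STAT5 in the textbook scheme, had no common direction. CISH without HHT measured 20.9 and 22.5 CPM in line F3, with 13.7 and 13.3 in G7, against 19.5 and 19.6 in F3 HHT and 16.1 and 17.2 in G7 HHT. The treated libraries lay between the controls of the 2 lines, and the log2 difference was 0.06 ± 0.10 (edgeR adjusted p 0.618). PIM1, a serine/threonine kinase that promotes survival, measured 2.16 and 2.52 CPM in line F3, with 5.17 and 5.61 in G7 without HHT, 4.80 and 5.20 in F3 HHT and 4.98 and 4.24 in G7 HHT. Its control lines were apart and its treated lines overlapped, with a log2 difference of 0.36 ± 0.22 (edgeR adjusted p 0.134). Scaling by library totals alone moves the median of all genes to 0.23 and the split of calls from 5438 higher and 5355 lower to 6682 and 4115; CISH at 0.29 (adjusted p 0.0188) and PIM1 at 0.60 (0.0235) then pass. PIM1 also passes without HHT replicate 4, at 0.56 (adjusted p 0.0320), and with no filter, at 0.43 (0.0110).

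**Figure D2:**
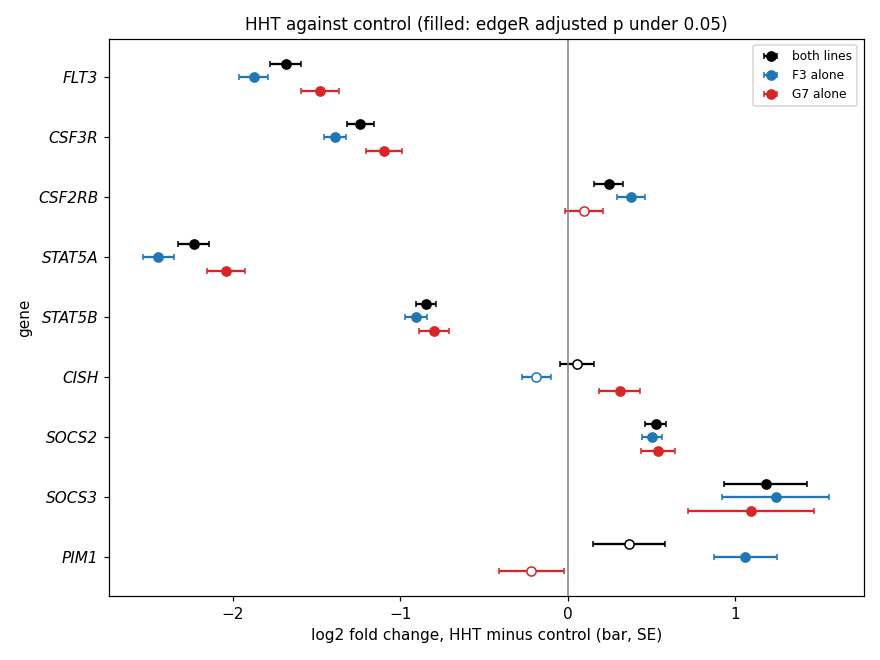
Log2 fold change of HHT against control (horizontal axis) for the 9 tested genes, with both lines together and each line alone; points are edgeR estimates, bars are SE and filled points passed an adjusted p of 0.05. STAT5A, FLT3, CSF3R and STAT5B lie left of 0 in both lines, and PIM1 is at 1.06 in F3 and -0.22 in G7.

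The lines were also compared with HHT 1 at a time. In F3 alone 8 of 9 members passed, beside 77.4% of all genes, and in G7 alone 7 of 9, beside 69.5%. PIM1 rose in F3 (1.06 ± 0.19, edgeR adjusted p 0.000247) and gave -0.22 ± 0.19 in G7 (0.331). CISH gave -0.19 ± 0.09 in F3 (0.0666) and rose in G7 (0.31 ± 0.12, 0.0411). CSF2RB rose in F3 (0.38 ± 0.08, 0.00118) and gave 0.10 ± 0.11 in G7 (0.454).

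The difference in HHT response, G7 minus F3, was tested as an interaction. PIM1 alone of the 9 passed, beside 3.8% of all genes, at -1.30 ± 0.26 (edgeR adjusted p 0.00973). Without control replicate 1 it was -1.16 (adjusted p 0.0959). The 8 others did not pass: CISH was at 0.47 ± 0.14 (0.0844), STAT5A at 0.38 ± 0.14 (0.176), FLT3 at 0.37 ± 0.14 (0.180) and CSF3R at 0.27 ± 0.13 (0.300); CSF3R passed without control replicate 3, at 0.44 (0.0302). With the replicate number of the titles as a block, 5 of 9 passed beside 14.9% of genes: CISH at 0.47 (edgeR adjusted p 0.0105), FLT3 at 0.37 (0.0109), CSF3R at 0.28 (0.0219), STAT5A at 0.38 (0.0393) and PIM1, so that in this fit the falls of FLT3, CSF3R and STAT5A were smaller in G7 than in F3. The block rests on the title numbers, and the numbers in the sample descriptions would pair the G7 libraries the other way. Beyond the titles, that pairing has only deviations in these same counts behind it, so the added calls are not firm.

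Before treatment the lines differed in FLT3, PIM1 and CISH. In G7 against F3 controls 3 of 9 members passed, beside 18.9% of all genes; these are the control libraries of the HHT comparison. FLT3 was 2.30-fold lower in G7, at 43.8 and 44.8 CPM against 108 and 95.4, with no overlap (log2 -1.20 ± 0.10, edgeR adjusted p 3.43e-07). PIM1 was higher in G7, at 5.17 and 5.61 CPM against 2.16 and 2.52 (1.20 ± 0.20, edgeR adjusted p 0.000451). CISH was lower in G7, at 13.7 and 13.3 CPM against 20.9 and 22.5 (-0.69 ± 0.10, edgeR adjusted p 0.000228). STAT5A was at 0.00 ± 0.09, SOCS2 at -0.02 ± 0.09, STAT5B at -0.08 ± 0.08 and CSF2RB at 0.08 ± 0.10, none of which passed. CSF3R was at 0.22 ± 0.09 (edgeR adjusted p 0.116) and passed without control replicate 4, at 0.30 (0.0184).

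Mutant against wild type in total RNA asked which genes differed with RUNX1 R174*, and STAT5A was the member that did. It measured 21.9 and 21.8 CPM in wild type and 46.7 to 48.9 in the 4 mutant controls, more than the replicates differed in either group. The log2 fold change was 1.12 ± 0.10, 2.17-fold higher in the mutant (edgeR adjusted p 0.000897), with 1.12 in F3 and 1.12 in G7 when each line was set against wild type alone. This was 1 of 9 members, beside 4.56% of all genes. The call held with every library left out in turn, at adjusted p 0.00119 to 0.0349, and with counts summed per mutant line.

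The other members did not pass with both lines as 1 group. STAT5B measured 110 and 129 CPM in wild type and 150 to 161 in the mutant, apart in every library (0.37 ± 0.10, edgeR adjusted p 0.0721). CSF3R was 198 and 173 CPM in wild type against 224 to 293.5 in the mutant (0.42 ± 0.13, 0.0937), and CSF2RB 36.9 and 40.3 against 28.9 to 33.5 (-0.35 ± 0.11, 0.0956). Those 3 genes had no overlap between genotypes, and the share of all genes without overlap was not counted. STAT5B and CSF3R passed by DESeq2 (adjusted p 0.0251 and 0.0295), which called 8.0% of all genes, beside 4.56% by edgeR. SOCS2 (0.16 ± 0.11), SOCS3 (0.44 ± 0.55), CISH (0.14 ± 0.23) and PIM1 (0.23 ± 0.40) overlapped between genotypes, with edgeR adjusted p from 0.454 to 0.794.

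FLT3 stood on both sides of wild type. Wild type measured 87.9 and 90.4 CPM, between the G7 controls at 43.8 and 44.8 and the F3 controls at 108 and 95.4. With both lines together the log2 difference was -0.30 ± 0.34 (edgeR adjusted p 0.665); F3 alone gave 0.18 ± 0.11 (0.235) and G7 alone -1.01 ± 0.12 (5.14e-06). In F3 alone 5 of 9 members passed, beside 22.7% of all genes: STAT5A, STAT5B (0.41), CISH (0.45) and CSF3R (0.31) higher and CSF2RB (-0.39) lower. In G7 alone 4 of 9 passed, beside 15.1%: STAT5A, PIM1 (0.71) and CSF3R (0.53) higher and FLT3 lower. The single-line comparisons share the wild-type libraries.

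**Figure D3:**
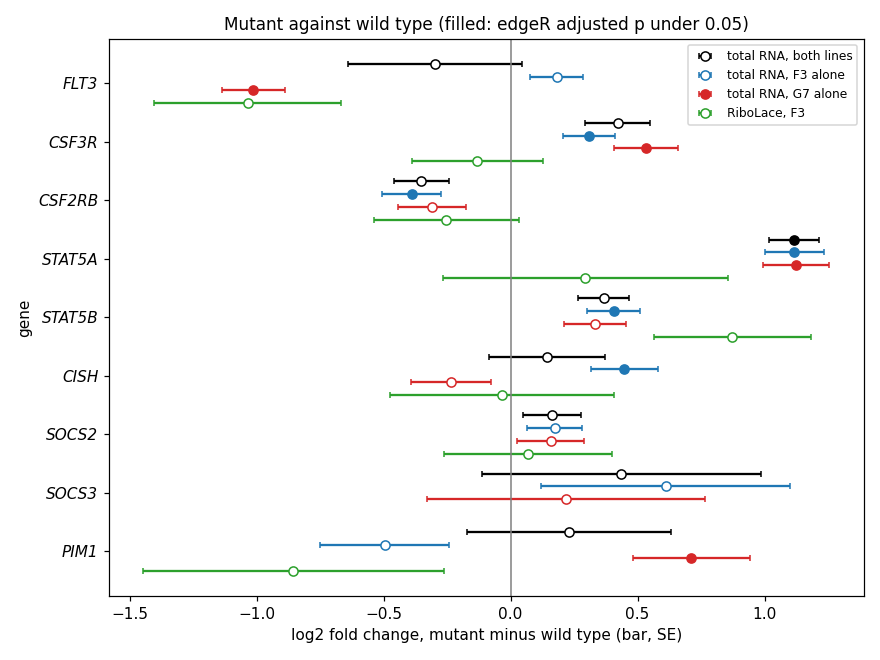
Log2 fold change of mutant against wild type (horizontal axis) in total RNA with both lines, F3 alone and G7 alone, and in RiboLace; points are edgeR estimates, bars are SE and filled points passed an adjusted p of 0.05. STAT5A is at 1.12 in all 3 total RNA fits and at 0.29 in RiboLace, and FLT3 is at 0.18 in F3 alone and -1.01 in G7 alone.

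RiboLace compared the RNA on translating ribosomes in untreated wild type and F3. None of the 8 members tested passed, beside 11.8% of all genes; SOCS3 and KIT were under the filter on low counts. By edgeR 2 of the 8 had an unadjusted p under 0.05, FLT3 and STAT5B, and DESeq2 called 0, with no adjusted p for 5. FLT3 measured 53.0 and 28.8 CPM in wild type (101 and 31 reads) and 22.6 and 16.5 in F3 (27 and 8 reads), not overlapping, at -1.04 ± 0.37 (edgeR adjusted p 0.0606). STAT5B measured 37.3 and 46.4 CPM in wild type (71 and 50 reads) and 61.9 and 94.9 in F3 (74 and 46 reads), also apart, at 0.87 ± 0.31 (edgeR adjusted p 0.0579). Without wild-type replicate 2 both passed, FLT3 at -1.38 (adjusted p 0.00630) and STAT5B at 1.00 (0.0363), as they did with protein-coding genes alone (0.0353 and 0.0313). FLT3 was at -0.50 (0.617) without wild-type replicate 1 and STAT5B at 0.58 (0.487) without F3 replicate 2.

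STAT5A, higher in mutant total RNA, had only 14 and 11 reads in wild-type and 10 and 7 in F3 RiboLace (7.35 and 10.2 against 8.36 and 14.4 CPM). These overlapped, and the difference of 0.29 ± 0.56 is too wide to tell a rise of the total RNA size from none. PIM1 measured 12.1 and 9.28 CPM in wild type and 5.85 and 6.19 in F3, from 23, 10, 7 and 3 reads (-0.86 ± 0.59, edgeR adjusted p 0.362). CSF3R was at -0.13 ± 0.26, CSF2RB at -0.25 ± 0.29, CISH at -0.03 ± 0.44 and SOCS2 at 0.07 ± 0.33.

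RiboLace against total RNA of the same genotype showed SOCS3, PIM1 and CSF2RB higher in RiboLace and SOCS2, FLT3, STAT5A and STAT5B lower, in wild type and in F3. In wild type 7 of 9 members passed, beside 48.3% of all genes, and in F3 8 of 9, beside 49.2%. SOCS3 is in both counts, having entered the test through the RiboLace libraries. The total RNA libraries are those of the mutant comparison. In F3 they are controls while the RiboLace libraries were untreated, so assay and control treatment cannot be told apart there. Wild type was untreated in both assays, so the difference of the ratios between genotypes carries this too. The share of counts in protein-coding genes was 97.8% to 98.3% without pull-down and 74.5% to 77.9% with it, and CPM were scaled within each assay, so the fold changes of the joint fit, not the CPM, carry the comparison. Scaling by library totals alone moves the median of all genes from 0.01 to -0.13 in wild type and from -0.04 to 0.09 in the difference between genotypes.

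CSF2RB was 71.4 and 76.1 CPM in wild-type RiboLace against 36.9 and 40.3 in total RNA, at 1.11 ± 0.16 (edgeR adjusted p 4.07e-06), and 58.5 and 66.0 against 29.9 and 29.3 in F3, at 1.19 ± 0.19 (2.27e-05). The ratio differed between genotypes by 0.08 ± 0.24 (edgeR adjusted p 0.966). PIM1 was at 1.92 ± 0.37 in wild type (edgeR adjusted p 0.000185) and 1.49 ± 0.59 in F3 (0.0398). The F3 call rested on 7 and 3 RiboLace reads and was lost without F3 RiboLace replicate 1 (0.313) or 2 (0.111), or F3 control replicate 1 (0.0680), and with no filter (0.0544). SOCS3 was at 4.22 ± 0.67 in wild type (edgeR adjusted p 1.70e-05), from 8 and 19 RiboLace reads against 4 and 18 in total RNA. SOCS3 passed the filter on low counts through the RiboLace libraries, where its CPM were higher. With no filter it was at 4.10 in wild type and 3.15 in F3. It was at 3.02 without wild-type RiboLace replicate 2, 5.03 without RiboLace replicate 1 and 5.64 without total RNA replicate 2. In F3 SOCS3 was at 3.26 ± 0.81 (edgeR adjusted p 0.00203), from 9 and 4 against 12 and 22; without F3 RiboLace replicate 1 the F3 value did not pass (0.0892).

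SOCS2 measured 29.4 and 39.9 CPM in wild-type RiboLace against 92.3 and 114 in total RNA (-1.43 ± 0.20, edgeR adjusted p 3.19e-06) and 35.9 and 35.1 against 114 and 120 in F3 (-1.57 ± 0.22, 4.85e-06). SOCS2 was thus the reverse of SOCS3 in both genotypes. STAT5B was at -1.36 ± 0.20 in wild type (edgeR adjusted p 7.13e-06) and -0.97 ± 0.20 in F3 (0.000425), the latter lost without F3 RiboLace replicate 1 (-0.65, 0.0763). STAT5A was at -1.19 ± 0.28 in wild type (0.00109), lost without wild-type RiboLace replicate 1 (0.0528), and at -2.08 ± 0.30 in F3 (4.71e-06). FLT3 was at -0.87 ± 0.21 in wild type (0.00143), or -1.52 without wild-type RiboLace replicate 1, and -2.15 ± 0.28 in F3 (1.19e-06).

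CISH did not pass in either genotype (0.29 ± 0.24 and -0.24 ± 0.29, edgeR adjusted p 0.353 and 0.520). CSF3R was at 0.01 ± 0.17 in wild type (0.957) and -0.49 ± 0.18 in F3 (0.0294); the F3 call was lost with each of F3 RiboLace replicates 1 and 2, F3 control replicates 1 and 2 and wild-type total RNA replicates 1 and 2 left out, at adjusted p up to 0.246, and with RLE size factors (0.0945) or protein-coding genes alone (0.0843). The difference of these ratios between F3 and wild type passed for 0 of 9 members, beside 1.49% of all genes (74 higher and 155 lower, or 72 and 79 with library totals alone). By edgeR 1 member, FLT3, had an unadjusted p under 0.05, and DESeq2 called 0. FLT3 was at -1.28 ± 0.36 (edgeR adjusted p 0.0748), -1.61 (0.000851) without wild-type RiboLace replicate 2 and -0.67 (0.549) without wild-type RiboLace replicate 1.

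**Figure D4:**
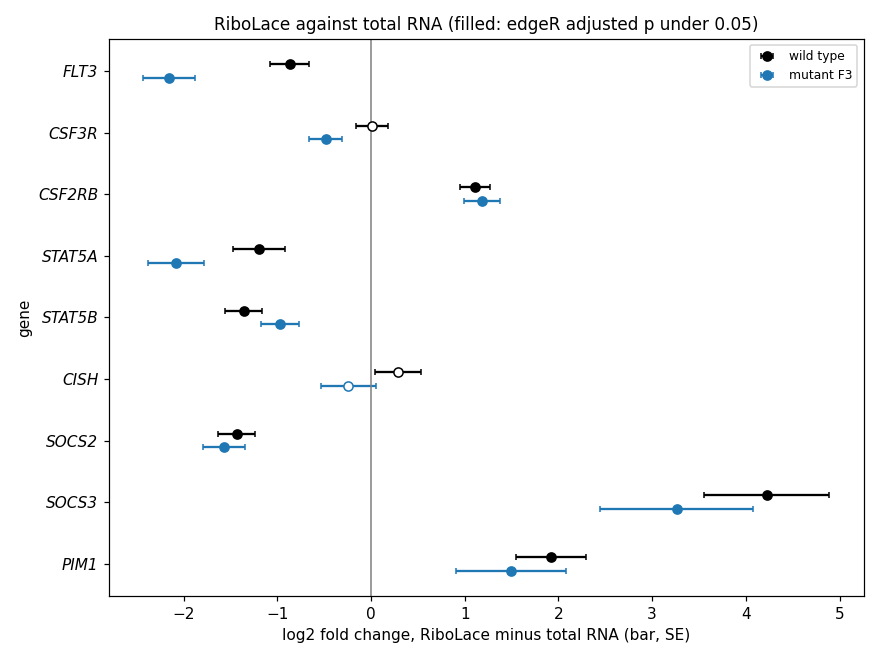
Log2 fold change of RiboLace against total RNA (horizontal axis) in wild type and in mutant F3; points are edgeR estimates from 1 fit of 8 libraries, bars are SE and filled points passed an adjusted p of 0.05. SOCS3, PIM1 and CSF2RB lie right of 0 and SOCS2, STAT5A, STAT5B and FLT3 left of 0 in both genotypes.

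Around the 10 genes, 7 lists of other genes of the pathway were described under HHT, chosen with earlier results of these data known. Each count stands beside 39.9% of all genes higher and 39.3% lower, 79.2% in all, and says nothing of a list where its share is near these. Tested genes under the filter level of 0.48 CPM in a control library were KITLG, FLT1, TIE1, IL7R, DUSP5 and GBP1. Those under it in an HHT library were THPO, PDGFRB, TIE1, IL15RA, IL21R, IL7R and CCR2. Such a gene could enter the test through the arm where it was higher, and it stays in the counts. Inhibitors of cytokine signalling other than CISH, SOCS2 and SOCS3 had 20 of 27 higher and 4 lower, with a median log2 difference of 0.52 beside -0.00 for all genes. SPRY2, which restrains receptor tyrosine kinase signalling, rose from 23.9 to 151.5 CPM (2.63 ± 0.13, edgeR adjusted p 3.49e-10). SH2B3, an adaptor that damps Janus kinases, rose by 2.05 ± 0.07 and SPRED2 by 1.45 ± 0.06, while INPP5D, the lipid phosphatase SHIP1, fell by 1.59 ± 0.08.

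Other genes listed as STAT5 targets had 17 higher and 6 lower of 25 tested from a list of 29, with a median of 1.04. EGR1, an immediate early transcription factor, rose from 9.74 to 471 CPM (5.59 ± 0.09, edgeR adjusted p 2.10e-14), CDKN1A by 3.01 ± 0.09 and BCL6 by 2.77 ± 0.08. BCL2, an inhibitor of apoptosis, fell from 288.5 to 27.6 CPM (-3.39 ± 0.09, edgeR adjusted p 1.35e-12). The list holds genes that many other signals also induce. The direction in which STAT5 acts on each was not checked, and BCL6 is not taken as induced by it. The count and median are therefore no measure of STAT5 activity.

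Janus kinases and STATs other than STAT5 had 4 higher and 2 lower of 8 tested. JAK3, the kinase paired with the common gamma chain, rose from 6.00 to 16.2 CPM (1.42 ± 0.11, edgeR adjusted p 1.96e-08), JAK2 rose by 0.62 ± 0.08, and STAT6 fell by 0.55 ± 0.08.

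Adaptors and PI3K genes at the receptor had 6 higher and 9 lower of 18 tested, with a median of -0.40. GAB2, a docking protein downstream of FLT3 and KIT, fell from 126 to 23.15 CPM (-2.43 ± 0.09, edgeR adjusted p 2.61e-11), and the kinases FES and SYK fell by 1.75 and 1.39. Other receptor tyrosine kinases had 3 higher and 5 lower of 11 tested from 15, with PDGFRB (-4.12), CSF1R (-2.54), INSR (-1.28) and IGF1R (-1.08) the named falls; PDGFRB was under 0.48 CPM in an HHT library and passed the filter through the controls, and was at -4.05 with no filter. Other cytokine receptor chains had 8 higher and 9 lower of 20 tested from 32, with IL6R (-1.76), IL12RB1 (-1.70) and EPOR (-1.48) lower and IL10RA (1.69) higher. Of 11 ligands 2 were tested: THPO fell from 1.05 to 0.509 CPM (-1.07 ± 0.28, edgeR adjusted p 0.00305), having passed the filter on low counts through the controls, and did not pass in G7 alone (-0.79, 0.0557) or without the line covariate (0.105), and KITLG, the ligand of KIT, was at 0.34 ± 0.36 (edgeR adjusted p 0.395), passing in F3 alone (1.12, 0.0142) and without control replicate 4 (0.91, 0.0149).

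**Figure D5:**
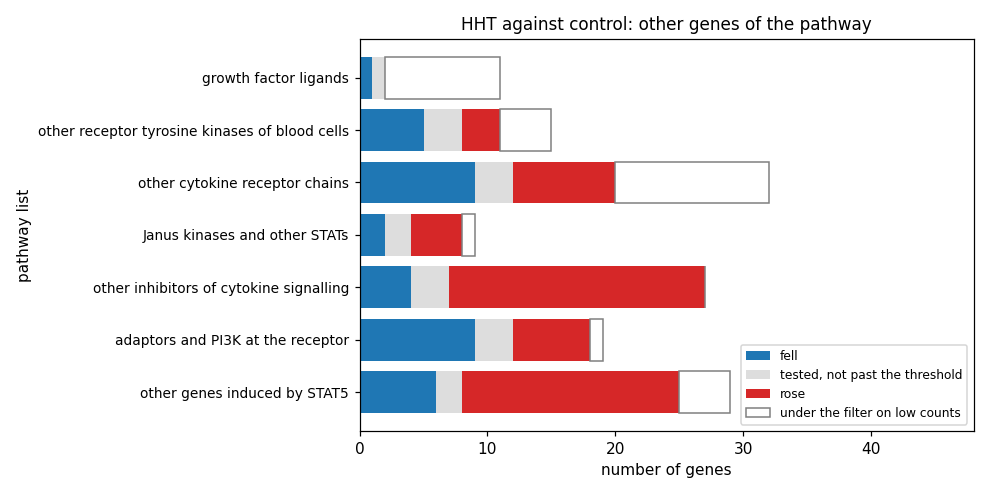
Number of genes (horizontal axis) in each of 7 pathway lists that fell, rose or did not pass an edgeR adjusted p of 0.05 under HHT, with genes under the filter on low counts as open bars. Other inhibitors had 20 of 27 higher and other STAT5 targets, labelled as induced by STAT5, 17 of 25.

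Between untreated lines, 1231 of all genes were higher and 1496 lower in G7, 18.9% of those tested. Of the other inhibitors 1 was higher and 9 lower of 27, of the adaptors 2 and 8 of 18, of other STAT5 targets 3 and 8 of 26 and of cytokine receptor chains 5 and 7 of 20. Receptor tyrosine kinases had 3 higher and 3 lower of 11, Janus kinases and STATs 0 and 1 of 9 and ligands 1 and 0 of 2. AXL, a receptor tyrosine kinase, was lower in G7 (5.50 against 25.7 CPM, log2 -2.22 ± 0.12). GAB2 (-0.81), LYN (-0.53), PTPRC (-0.56), IL6R (-0.75), IL10RA (-1.37), FOS (-2.17) and CCR2 (-3.65) were all lower in G7.

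In mutant against wild type in total RNA, 4.56% of all genes passed. Of the Janus kinases and other STATs 2 of 8 were higher and 0 lower, among them STAT3 at 0.43 ± 0.09 (97.99 against 72.27 CPM). FGR, a SRC family kinase, was lower (14.6 against 46.8 CPM, -1.69 ± 0.14, edgeR adjusted p 0.000897), as was CCND3 (77.8 against 197 CPM, -1.35 ± 0.13, 0.00135), and PIK3CA was higher (0.87 ± 0.13). CSF1R, the receptor for colony-stimulating factor 1, was lower, at 5.78 against 16.4 CPM (-1.51 ± 0.20, edgeR adjusted p 0.00518). Without wild-type replicate 1 STAT3, CSF1R and PIK3CA did not pass, and without wild-type replicate 2 STAT3 and CSF1R did not; STAT3 was also lost without control replicate 1, 2 or 4, with adjusted p up to 0.308. FGR and CCND3 passed with each of the 6 libraries left out.

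In RiboLace FGR was again lower in F3 (16 against 112 reads, -2.05 ± 0.43, edgeR adjusted p 0.00215, or -2.65 without F3 RiboLace replicate 1), CCND2 was higher (148 against 54.4 CPM, 1.48 ± 0.28, 0.000922), and CSF1R, which entered the test through wild type, had 1 read in F3 against 72 in wild type and did not pass without wild-type RiboLace replicate 1 (0.0527). SH2B3 stood higher on ribosomes than in total RNA in wild type (1.74 ± 0.22) and in F3 (2.03 ± 0.23), and PTPN2, a phosphatase that acts on Janus kinases, stood lower (-2.10 ± 0.21 and -2.66 ± 0.27). IL5RA, which pairs with CSF2RB in the interleukin-5 receptor, had 15 reads in each RiboLace pair and 0 and 1 in the matching total RNA pairs. It entered the test through the RiboLace libraries, and whether these reads are IL5RA mRNA on ribosomes was not tested.

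Among 9759 protein-coding genes of at least 5 CPM, those with the pattern most like each member over the 5 total RNA group means were found by the root mean square difference of centred log2(CPM + 1). VEGFA was nearest to STAT5A (0.077, beside a median of 1.01 over all genes), then HS6ST1 and SH3PXD2A. IL23A was nearest to FLT3 (0.118, median 1.03), then ITGB2 and SEL1L3. EEF1AKMT3 was nearest to CSF3R (0.036), STRBP to STAT5B (0.031), TRA2A to CSF2RB (0.018), PPTC7 to SOCS2 (0.0076), CD300LF to CISH (0.057), RFX1 to SOCS3 (0.042) and SLC36A4 to PIM1 (0.138). Members differed in how much they varied: FLT3 spanned 2.61, STAT5A 2.29, SOCS2 0.72 and CSF2RB 0.40 log2 units over the 5 groups.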

How the data were processed

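Read counts per gene for 14 libraries were used as the authors deposited them, as raw whole-number counts with no normalization. The labels' protocols record total RNA treated with DNase and Illumina libraries. STAR 2.6.0b, DESeq2 and GRCh38 are named in the submitters' processing notes, with no role; for the counting program, its annotation and strand setting, and how RiboLace libraries were made, the answer is not given in the sources used here. Of 58037 IDs, 57433 matched GENCODE 29, which gave symbols and GRCh38 coordinates.

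The members, pathway lists and markers were chosen with earlier results of these data known. All members are named; of each pathway list, up to 4 genes of smallest adjusted p under HHT and up to 2 in every other comparison could be named. Some genes that this rule names are not reported here. Likeness used genes of at least 5 CPM and a pseudocount of 1.

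Counts were filtered with filterByExpr, scaled by TMM within each assay (all 8 libraries together for RiboLace against total RNA) and tested with edgeR 4.0.16 (quasi-likelihood F-test, R 4.3.3) over all genes, with Benjamini-Hochberg adjustment and a threshold of 0.05. HHT was fitted with line as a covariate. The SE is approximate: the size of the log2 fold change over the root of its F statistic. Some contrasts were also run on simulated counts with a fixed spread and no difference between assays, and the outcome is not reported here. The HHT response difference and the RiboLace ratios within a genotype were not among them. Alternatives were DESeq2 1.42.0, RLE size factors, library totals, no filter, protein-coding genes alone, single lines, sums per line, a replicate block and each library left out.

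Replicates of a group differed by more than sampling noise (chi-square per degree of freedom 2.95 to 11.3). Same-numbered HHT and control libraries deviated together around line means (r 0.277 in F3 and 0.497 in G7, 10130 genes), and the numbers of the titles were used as the block. Each line gives only a single such r, from the same counts, and it changes sign with the pairs crossed. It therefore cannot show that the libraries are paired. Around group means r was 0.494 to 0.637. Those values hold the difference between lines, which both arms share, and cannot show pairing within a line. The descriptions number the G7 libraries differently, so the pairing is not settled by the labels. The total RNA libraries held 19250789 to 21925693 counts and RiboLace libraries 465052 to 2034796.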

Additional observations from a re-analysis of the deposited data

Results flagged for a closer look

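Each result here met a rule for an outlying library or for a difference between lines; the first rule picks out about 1 in 20 groups by chance. KIT in mutant controls was picked out because G7 replicate 3 stood apart at 0.0538 CPM, which is 1 read, with the other 3 libraries at 0.

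PIM1 differed in its HHT response between lines, by -1.30 ± 0.26 for G7 minus F3 (edgeR adjusted p 0.00973). Every F3 HHT library was above every F3 control, at 4.80 and 5.20 against 2.16 and 2.52 CPM, and every G7 HHT library was below every G7 control, at 4.98 and 4.24 against 5.17 and 5.61 CPM. The rise in F3 alone passed (1.06, edgeR adjusted p 0.000247), and the value in G7 alone, -0.22, did not (0.331). Without control replicate 1 the difference between lines was -1.16.

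CISH estimates also had opposite signs by line, with both F3 HHT libraries below both F3 controls and both G7 HHT libraries above both G7 controls. The value in F3 alone, -0.19, did not pass (edgeR adjusted p 0.0666), and that in G7 alone, 0.31, did (0.0411). The test of the difference between lines gave 0.47 ± 0.14 (edgeR adjusted p 0.0844), and 0.0105 with the replicate block.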

How the results depend on the processing

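Over 71 results of the members, 1007 values under alternatives kept direction and call in 903 cases; 24 lost a call, 36 gained one and 44 changed sign, none of the 44 while passing in the opposite direction. For every change named here the cause was not tested, with these exceptions. Single lines, line sums and left-out libraries have fewer samples, and the replicate block of mutant against wild type in total RNA leaves G7 out of the estimate. RiboLace depth left 3 to 328 reads per member and library, KIT aside.

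Under HHT, CISH was at -0.19 in F3 alone, PIM1 at -0.22 and KITLG at -0.24 in G7 alone. The HHT response difference called 823 genes with no filter and, with the replicate block, 2153 genes (14.9% of those tested) and 5 members. The replicate block changed no other call of a paired comparison. Untreated G7 against F3 gave STAT5A -0.026 with RLE size factors, -0.0063 with no filter and -0.026 with DESeq2, and SOCS2 0.0069 with library totals.

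Mutant against wild type in total RNA called 1655 genes (6.0% of those tested) and 2 members with no filter, and 1116 (8.0%) and 3 with DESeq2. It called 2652 (19.0%) and 4 with the replicate block, 3080 (22.7%) and 5 in F3 alone, 2059 (15.1%) and 4 in G7 alone, and 179 genes with line sums. Replicate numbers 3 and 4 occur here only in G7, so the block takes up the G7 libraries. The block fit is then F3 against wild type and no separate alternative for both lines. FLT3 was at 0.18 with the block and 0.18 in F3 alone, PIM1 at -0.49 and -0.50, and CISH at -0.23 in G7 alone. In RiboLace, DESeq2 called 415 genes. With library totals 1 member passed, beside 12.8% of all genes, and with no filter 1, beside 4.4%. With protein-coding genes alone 2 passed, beside 14.3%, and with the replicate block 2, beside 16.8%. CISH was at 0.034 with library totals and SOCS2 at -0.022 with no filter. RiboLace against wild-type total RNA put CSF3R at -0.12 with library totals and -0.10 with no filter. The difference between genotypes called 151 genes with library totals, 527 (1.73% of those tested) and 1 member with no filter, 606 with DESeq2 and 361 with protein-coding genes alone. Here same-numbered libraries did not deviate together (r -0.197 for wild type and F3 control, -0.0465 for RiboLace, -0.122 and -0.128 across assays). In F3, RiboLace against total RNA, PIM1 lost its call with the replicate block (adjusted p 0.0659) and CSF3R did too (0.0588). PIM1 did not pass there with pairs crossed either (edgeR adjusted p 0.0597). A crossed pairing, chosen after seeing the data, called 7180 and 7482 genes for RiboLace against total RNA. For the difference it called 567 genes (3.7% of those tested) and 1 member.

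Leaving out 1 library at a time, the HHT response difference called 178 to 1089 genes and 0 to 2 members, untreated G7 against F3 1548 to 3189 genes, mutant against wild type 43 to 649 genes in total RNA and 247 to 1811 genes and 0 to 2 members in RiboLace, RiboLace against F3 total RNA 4679 to 7885 genes and 4 to 8 members, and the genotype difference 24 to 1497 genes and 0 to 1 members. An arm left with 1 library is assumed to vary like the others. The ranges of members called are not read as a result about the members. CISH under HHT ranged from -0.034 to 0.12. In the response difference SOCS2 ranged from -0.071 to 0.17 and SOCS3 from -0.61 to 0.34. Between untreated lines CSF2RB ranged from -0.062 to 0.13, STAT5A from -0.074 to 0.0055, SOCS2 from -0.18 to 0.060 and SOCS3 from -0.91 to 0.035. For mutant against wild type SOCS3 ranged from -0.22 to 1.78 and PIM1 from -0.022 to 0.54 in total RNA, and STAT5A from -0.034 to 0.75, CISH from -0.22 to 0.14 and SOCS2 from -0.17 to 0.26 in RiboLace. CSF3R in wild-type RiboLace against total RNA ranged from -0.13 to 0.18. In the genotype difference SOCS2 ranged from -0.35 to 0.031 and SOCS3 from -2.28 to 0.20.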

Other observations

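Other genes of the pathway lists differed between lines in their HHT response. FOS, an immediate early transcription factor, was at 1.27 ± 0.16 for G7 minus F3 (edgeR adjusted p 0.000508) and TRIB3, a stress-induced pseudokinase, at 0.91 ± 0.13 (0.000894). PTPN6, the phosphatase SHP-1 that damps cytokine receptors, was at 0.80 ± 0.11 (0.00114) and SPRY2 at -0.82 ± 0.13 (0.00180). These 4 passed with each of the 8 libraries left out in turn.

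CCND2, a cyclin of the G1 phase, stood far higher in RiboLace than in total RNA, by 2.84 ± 0.21 in wild type (edgeR adjusted p 1.85e-10) and 3.51 ± 0.19 in F3 (5.12e-13). IGF1R, a receptor tyrosine kinase, was higher in RiboLace by 1.497 ± 0.18 and 2.24 ± 0.18, while BTK, a kinase downstream of receptors, was lower (-1.07 ± 0.17 and -1.52 ± 0.19). These 3 genes also passed with each of the 8 libraries left out in turn.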
